A study of Mus musculus with 6 samples.

Results

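The genes of the mitochondrial protein import machinery were examined in RAW264.7, a mouse line of monocyte/macrophage type that turns into bone-resorbing osteoclasts when induced. They were taken as the protein-coding rows of the deposited count table whose symbol begins with Tomm, Timm, Samm, Pam16, Pmpc, Grpel, Hspa9, Dnajc19 or Chchd, which gave 37 of 41921 rows, or 37 of 20461 protein-coding rows. The rule reads names alone. RNA sequencing covered 3 libraries labelled albiflorin, a plant glycoside found in peony, and 3 libraries labelled RANKL, the cytokine that induces osteoclast formation. All 6 carry the labels of wild-type cells and of one osteoclast differentiation protocol, which names RANKL at 50 ng/mL. Whether the albiflorin cells received RANKL as well is not stated beyond that shared protocol. For albiflorin, neither dose nor duration is given in the sources used here. Untreated cells were not analysed here. RAW264.7 is a single transformed line, and nothing in the labels says that the libraries of a group came from separate cultures, so each p-value speaks only of the spread among these libraries, which may be technical.

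Most mitochondrial proteins are encoded in the nucleus, made in the cytosol and imported as unfolded chains. The TOM complex of the outer membrane receives them with its receptors and passes them through its pore, and the SAM complex inserts barrel-shaped outer membrane proteins. Chains with a cleavable presequence go through the TIM23 channel and are pulled into the matrix by a motor built round the Hsp70 chaperone Hspa9 (mortalin), after which the matrix processing peptidase removes the presequence. Small TIM chaperones carry hydrophobic proteins across the intermembrane space to the TIM22 carrier translocase. Small proteins with paired cysteines, among them many CHCHD proteins, are trapped in the intermembrane space by the oxidising receptor Chchd4 (Mia40).

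Libraries held 13708041 to 15200418 counts with albiflorin and 13673284 to 15489482 counts with RANKL. Of 6 macrophage markers matched, 5 stood at 1 CPM (counts scaled to library size) or more in every library. The 6 summed to 3090 to 3280 CPM with albiflorin and 3210 to 3400 CPM with RANKL. Itgam was the exception, at 0.0734 CPM in RANKL replicate 1 and at 0 in the other libraries. Of 7 osteoclast markers, 4 reached 1 CPM in every library. Their list summed to 175 to 187 CPM with albiflorin and 184 to 200 CPM with RANKL. Ctsk and Ocstamp stayed under 1 CPM in all 6, with Ctsk at 0.562 to 0.923 CPM with albiflorin and 0.319 to 0.54 CPM with RANKL. Calcr, the calcitonin receptor of mature osteoclasts, was at 0 in all 6. Single markers lay in opposite directions, with Nfatc1 at 116 to 127 CPM with albiflorin and 136 to 151 CPM with RANKL, and Acp5 at 26.5 to 29.7 CPM with albiflorin and 20.9 to 25.1 CPM with RANKL. Markers of T cells, fibroblasts and epithelium summed to 3.51 CPM at most per list in any library. Of these, Pdgfrb of the fibroblast list had 1.91 to 3.37 CPM with albiflorin and 2.5 to 3.06 CPM with RANKL. Cd3d reached 0.255 CPM and Epcam 0.141 CPM at most, and Cd3e and Cdh1 were at 0. Short mRNAs tended to be higher and long mRNAs lower with albiflorin, and the counts of import genes are therefore also given with that trend removed.

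Levels per length spread over a wide range. In the authors' FPKM (fragments scaled by library size and by the listed gene length), Hspa9 was far the most abundant, at 249 ± 7.68 FPKM with albiflorin and 245 ± 8.62 FPKM with RANKL (SD, n = 3 each). It was followed by Timm8b, with a mean over all 6 libraries of 78.5 FPKM, and by Samm50 at 77.3, Tomm70a at 69.3, Chchd1 at 66.1, Timm13 at 56.9, Timm23 at 54.2 and Tomm7 at 53.0 FPKM. Neighbours in this order differed by less than the spread between their libraries in several places. Timm8b had 93.6 ± 8.74 FPKM with albiflorin and 63.5 ± 7.87 FPKM with RANKL, a range that takes in both Samm50 and Tomm70a. At the low end of the detected genes stood Chchd7 with 3.75 FPKM and Tomm40l with 2.19 FPKM. The remaining 3 members were close to 0 on the same scale, with means of 0.114 FPKM for Tomm6, 0.0727 FPKM for Tomm20l and 0.0643 FPKM for Timm8a2. The order also depends on the listed gene length, which is 4060 bases for Chchd7 beside an annotated mRNA of 889 bases. For Samm50 it is 1673 bases beside an mRNA of 4629 bases.

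**Figure D1:**
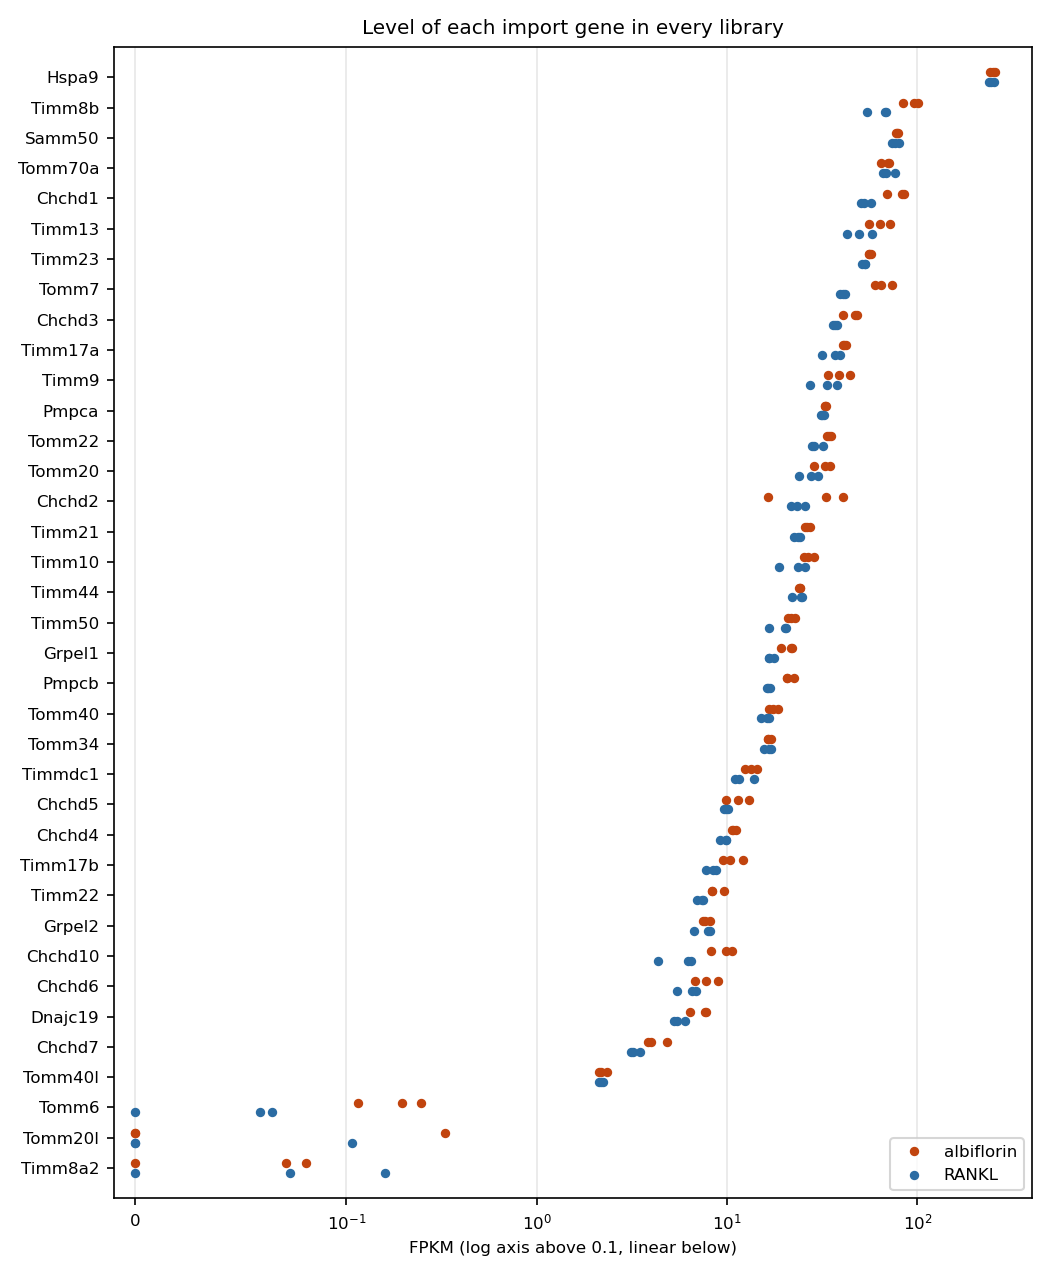
FPKM of the 37 import genes (log axis above 0.1, linear below) in each library, genes ordered by their mean over all 6 libraries and coloured by group. Hspa9 lies above every other gene, most others lie between 2.19 and 78.5 FPKM, and Tomm6, Tomm20l and Timm8a2 lie near 0.

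Of the 37 genes, 34 had enough counts to be tested, and 13 of these 34 (38.2%) were higher with albiflorin at an adjusted p under 0.05 (edgeR quasi-likelihood test), against 12.4% of all 13158 genes tested. No import gene was lower, against 11.4% of all genes, and also none was lower at an unadjusted p under 0.05 or by DESeq2 or limma-voom. The log2 fold change, albiflorin over RANKL, was positive for 33 of the 34, with a median of 0.23 beside 0.01 over all genes. In 19 of 34 genes (55.9%) all 3 albiflorin libraries lay above all 3 RANKL libraries, which held for 20.8% of all genes, and in 0 they lay below, which held for 19.3%. In bulk RNA, fewer cells of a type and less RNA per cell cannot be told apart.

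Of the 13 genes, 9 lie in several steps of the route and 4 are CHCHD genes. The 9 include Tomm7 and Tomm20 of the outer membrane translocase, and Timm17b, Dnajc19 and Grpel1 of the TIM23 channel and motor. They also include Timm22 of the carrier translocase, the small TIM chaperones Timm8b and Timm13, and Pmpcb of the processing peptidase. The 4 CHCHD genes are Chchd1, Chchd3, Chchd7 and Chchd10. The sizes were modest, and log2 fold changes of the 13 ran between 0.24 for Tomm20 and 0.76 for Chchd10. Import genes as a whole took 0.307%, 0.305% and 0.305% of the counts of albiflorin libraries 1 to 3, against 0.287%, 0.279% and 0.278% of those of RANKL libraries 1 to 3. Hspa9 alone made up 30.7% to 32.9% of these counts with albiflorin and 34.0% to 34.8% with RANKL. Summed without Hspa9, the import genes stood at 2085, 2155 and 2059 CPM with albiflorin and 1879, 1793 and 1817 CPM with RANKL, so the groups did not overlap.

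The fold changes followed transcript length. With the trend of fold change on mRNA length removed, 7 of 34 import genes were higher (20.6%, against 5.04% of all genes) and 0 lower (against 5.49%), and the median log2 fold change was 0.11. Of these 7, 5 were among the 13, and Chchd4 and Timm17a were added. When the trend on the gene length listed in the deposited table was removed instead, 8 of 34 were higher (23.5%, against 7.18%) and 0 lower (against 7.96%), with a median of 0.10. Of these 8, 7 were among the 13, and Chchd4 was added. Tomm7, Pmpcb, Grpel1 and Tomm20 were called higher in all 3 of these fits. Leaving out each library in turn, 7 of the 13 were called every time, namely Tomm7, Chchd1, Timm8b, Pmpcb, Chchd3, Grpel1 and Chchd10, and without RANKL replicate 2 they were the only 7 called.

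**Figure D2:**
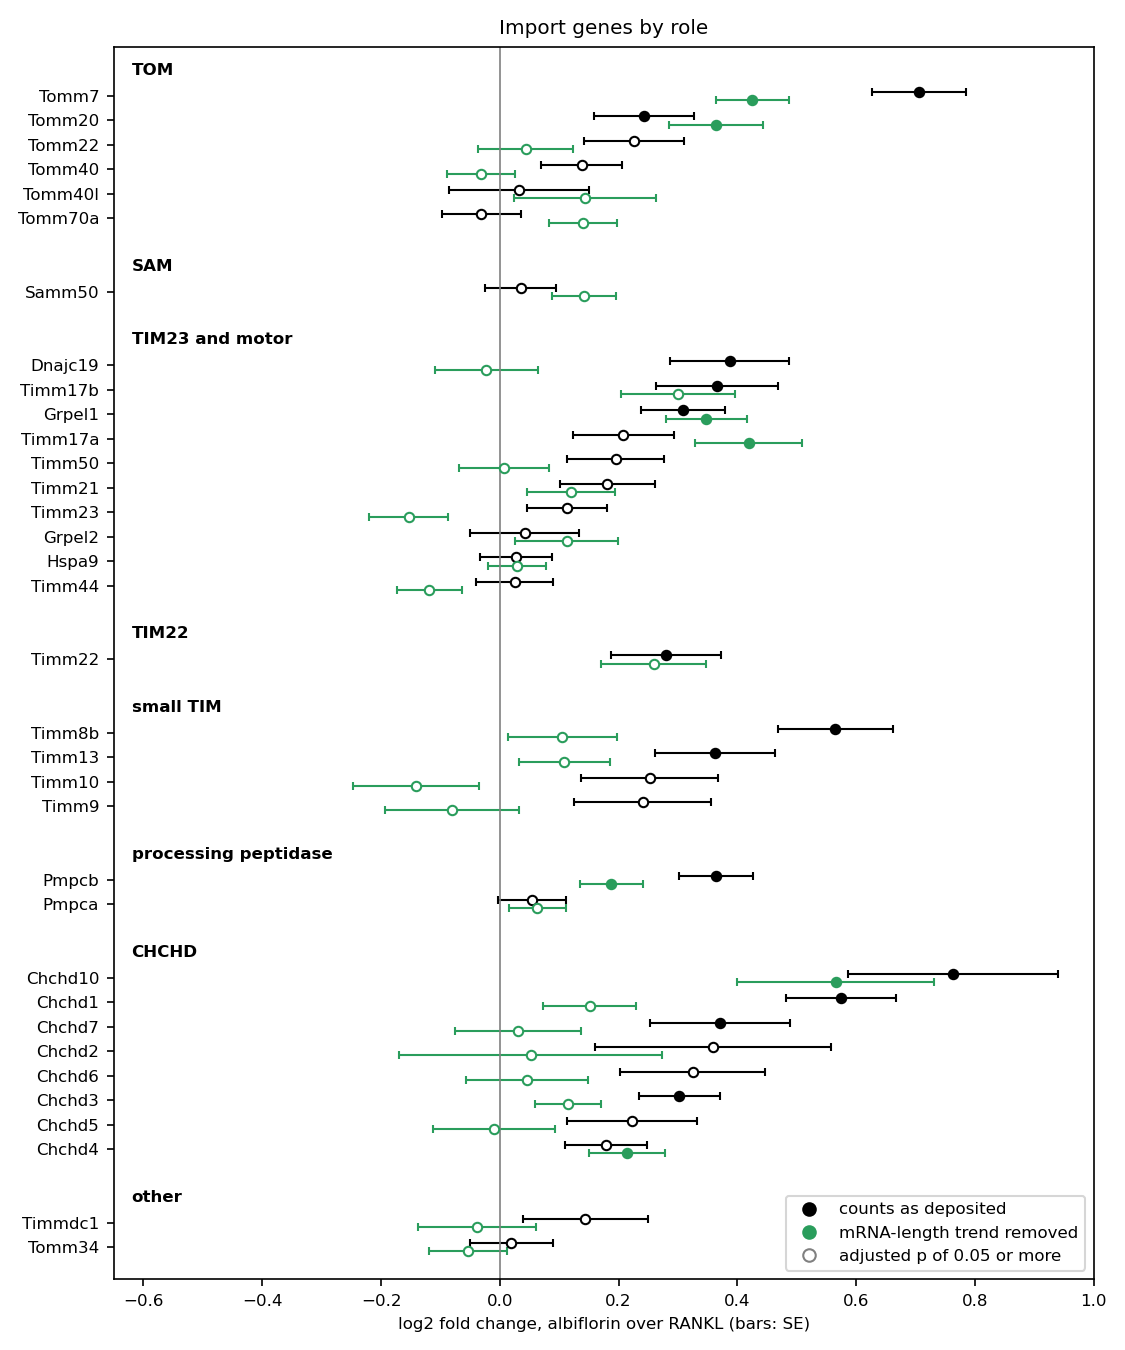
Log2 fold change, albiflorin over RANKL, with its standard error for the 34 tested import genes, grouped by role, as fitted (black) and after removal of the mRNA-length trend (green), with open points at an adjusted p of 0.05 or more. All but Tomm70a lie above 0 as fitted, and the small TIM genes lie within 0.14 of 0 once the trend is removed.

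In the TOM complex, Tomm7, a small subunit that modulates how the complex holds together and that in human cells helps keep the kinase PINK1 on the outer membrane, had the lowest p of all import genes. Tomm7, on chromosome 5 at 23008138 to 23012986 in the deposited table, stood at 72.9, 83.1 and 67.3 CPM in albiflorin libraries 1 to 3, against 45.8, 44.2 and 47.0 CPM in RANKL libraries 1 to 3. The lowest albiflorin library was well above the highest RANKL library. Its means were 74.4 ± 8.01 CPM with albiflorin and 45.6 ± 1.41 CPM with RANKL (SD, n = 3 each), a log2 fold change of 0.71 ± 0.0792 (SE, edgeR adjusted p = 0.00014). After removal of the mRNA-length trend it was still higher, by 0.43 on the log2 scale (edgeR adjusted p = 0.000968).

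Tomm20, a receptor that binds presequences, rose less. It had 143, 174 and 164 CPM with albiflorin and 149, 139 and 119 CPM with RANKL. The groups overlapped, since albiflorin replicate 1 lay under RANKL replicate 1. The log2 fold change was 0.24 ± 0.0842 (SE, edgeR adjusted p = 0.0468), and it was 0.36 (adjusted p = 0.00863) after removal of the mRNA-length trend. Without RANKL replicate 2 (adjusted p = 0.0961), without RANKL replicate 3 (0.228) and without albiflorin replicate 2 (0.166) or 3 (0.0944) the gene did not pass, nor did it with limma on FPKM (0.143 with a pseudocount of 1).

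The other TOM genes did not pass the test. Tomm22, the central receptor, had 33.8, 36.0 and 34.7 CPM with albiflorin and 32.3, 28.9 and 28.2 CPM with RANKL, a log2 fold change of 0.23 ± 0.0844 (SE, adjusted p = 0.0633). The pore protein Tomm40 had 71.2, 79.2 and 74.0 CPM with albiflorin and 69.0, 64.4 and 70.6 CPM with RANKL, with a log2 fold change of 0.14 ± 0.0679 (SE, adjusted p = 0.157). In both genes all albiflorin libraries lay above all RANKL libraries, by a small margin for Tomm40. Tomm70a, the receptor for carrier proteins and the only tested import gene with a negative value, had 245, 268 and 268 CPM with albiflorin and 260.1, 288 and 250.3 CPM with RANKL, with log2 fold change -0.03 ± 0.0669 (SE, adjusted p = 0.785). Its groups overlapped fully. Tomm40l, a homologue of the pore protein, had a log2 fold change of 0.03. Tomm22 passed the threshold without RANKL replicate 1 (adjusted p = 0.0459).

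Tomm6 and Tomm20l were not tested. Tomm6, a small TOM subunit, was listed with 2, 3 and 4 counts with albiflorin and 1, 0 and 1 counts with RANKL. By the coordinates of the deposited table, 1648 bases of its span overlap Prickle4 on the same strand. Tomm6 also overlaps the antisense gene Tomm6os by 777 bases, so its counts may not reflect its transcript. A low value for it is therefore uncertain.

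**Figure D3:**
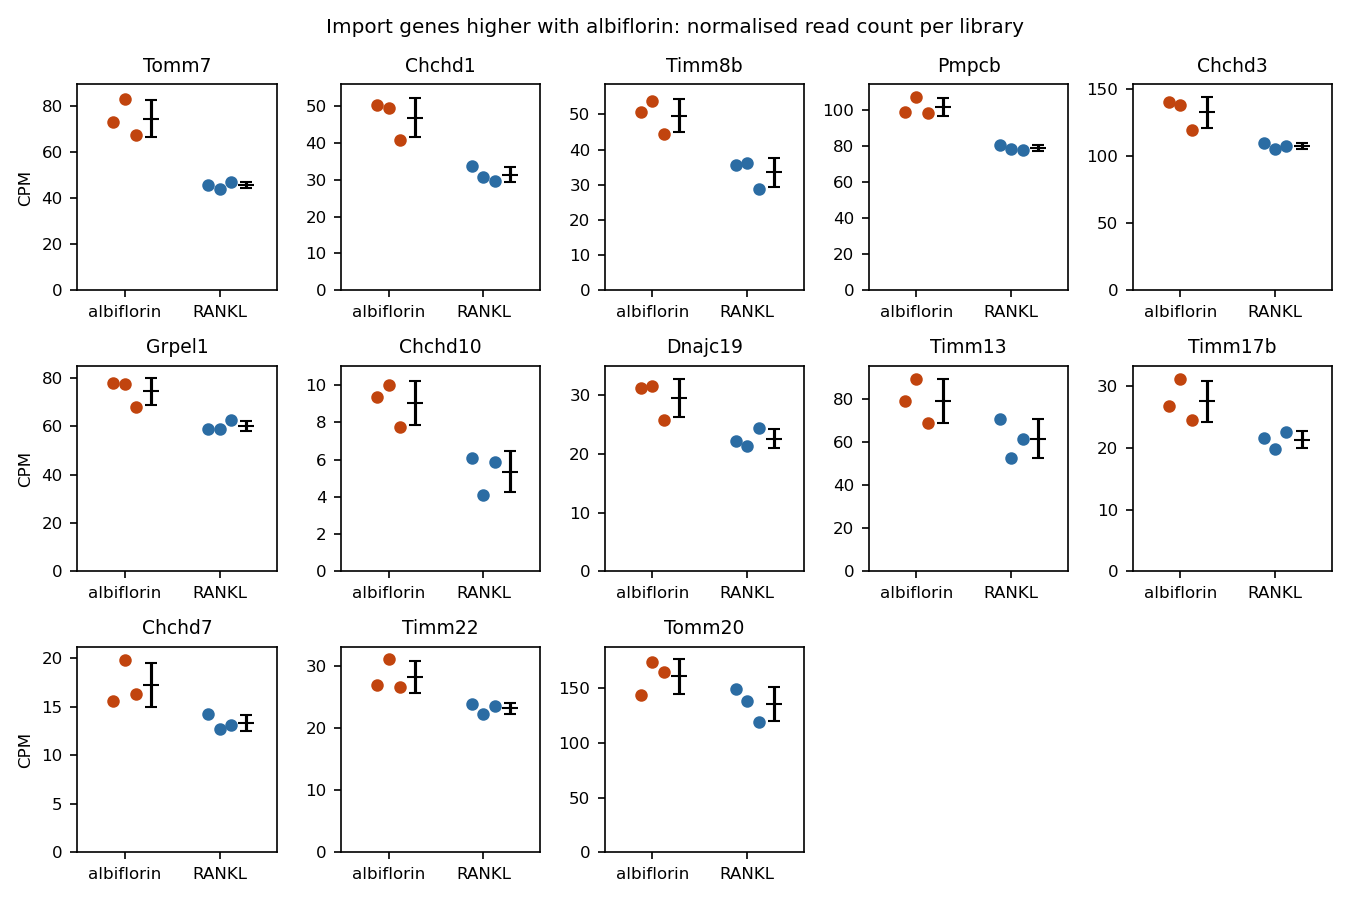
CPM in each library for the 13 import genes called higher, albiflorin left of RANKL in each panel, with the mean and SD as black bars. Tomm7, Chchd1, Timm8b, Pmpcb, Chchd3 and Grpel1 show separated groups, while Tomm20 and Timm13 overlap.

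In the TIM23 channel and its motor, 3 of 10 genes were higher (30.0%, against 12.4% of all genes), with a median log2 fold change of 0.19. Grpel1 was the 1 of the 3 still called after removal of the mRNA-length trend, where the median was 0.07. Timm23, a channel subunit, and the receptor Timm50 did not pass. Timm23 had 53.1, 54.5 and 52.9 CPM with albiflorin and 50.1, 50.1 and 48.3 CPM with RANKL. Its log2 fold change was 0.11 ± 0.0672 (SE, adjusted p = 0.245). These libraries did not overlap, yet the value turned to -0.15 after removal of the mRNA-length trend and to -0.21 after removal of the gene-length trend. Timm50, the receptor that takes presequences from TOM, had 58.4, 56.6 and 61.3 CPM with albiflorin and 54.2, 44.7 and 55.2 CPM with RANKL, with a log2 fold change of 0.20 ± 0.0821 (SE, adjusted p = 0.0975). RANKL replicate 2 was the lowest of the 6.

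The paralogues Timm17a and Timm17b, alternative channel subunits, lay on either side of the threshold. Timm17b had 26.8, 31.2 and 24.6 CPM with albiflorin and 21.7, 19.9 and 22.6 CPM with RANKL, with a log2 fold change of 0.37 ± 0.103 (SE, edgeR adjusted p = 0.0173). Timm17a had 44.6, 45.5 and 46.2 CPM with albiflorin and 43.1, 34.4 and 40.6 CPM with RANKL, with 0.21 ± 0.0856 (SE, adjusted p = 0.0909). Neither gene's groups overlapped. The Timm17b call ended without RANKL replicate 2 (adjusted p = 0.079) or albiflorin replicate 2 (0.0936), and with the mRNA-length (0.0554) or gene-length (0.0709) trend removed. Timm17a passed without RANKL replicate 1 (adjusted p = 0.0499) and after removal of the mRNA-length trend, at 0.42 (adjusted p = 0.00803), but had -0.08 after removal of the gene-length trend. Its annotated mRNA is 7280 bases long and its listed gene length 1094 bases, so the removals treat it very differently.

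Among the motor genes, Grpel1, the nucleotide exchange factor of Hspa9, rose. Grpel1, on chromosome 5 at 36708365 to 36717198 in the deposited table, had 77.8, 77.4 and 67.99 CPM with albiflorin and 58.9, 58.8 and 62.6 CPM with RANKL. The groups were apart, and the log2 fold change was 0.31 ± 0.0709 (SE, edgeR adjusted p = 0.00572). It was 0.35 (adjusted p = 0.00467) after removal of the mRNA-length trend. Grpel2, the second exchange factor, had a log2 fold change of 0.04.

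Dnajc19, the J-protein that stimulates Hspa9 at the channel, had 31.3, 31.6 and 25.8 CPM with albiflorin and 22.2, 21.3 and 24.4 CPM with RANKL. The groups were separate by a small gap, with a log2 fold change of 0.39 ± 0.1 (SE, edgeR adjusted p = 0.011). The call ended without RANKL replicate 2 (adjusted p = 0.055) or albiflorin replicate 1 (0.0631), and the value was -0.02 after removal of the mRNA-length trend. After removal of the gene-length trend it was 0.39 (adjusted p = 0.0134), since its mRNA has 659 bases and its listed gene length is 4036 bases. Its span overlaps 16162 bases of Fxr1 on the opposite strand, which had 2325 to 2607 counts per library, and no source used here says whether counting used strand.

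Hspa9 itself had 989.9, 953 and 1009 CPM with albiflorin and 1003, 957 and 937 CPM with RANKL, with a log2 fold change of 0.03 ± 0.0612 (SE, adjusted p = 0.796). Timm44, which tethers Hspa9 to the channel, had 89.6, 89.0 and 87.8 CPM with albiflorin and 90.7, 80.7 and 90.5 CPM with RANKL, with 0.03 ± 0.065 (SE, adjusted p = 0.822). The libraries of both genes overlapped. Timm21, which links the channel to TOM, had a log2 fold change of 0.18.

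In the carrier route, Timm22, the channel of the carrier translocase, had 26.8, 31.1 and 26.5 CPM with albiflorin and 23.8, 22.2 and 23.6 CPM with RANKL. The groups did not overlap, and the log2 fold change was 0.28 ± 0.0933 (SE, edgeR adjusted p = 0.0388). The gene was called in 4 of 17 alternatives. The call was lost without RANKL replicate 1, 2 or 3 (adjusted p = 0.0681, 0.121 and 0.0756) and without albiflorin replicate 1 or 2 (0.0698 and 0.181). It also ended with DESeq2 (0.0585), after removal of the mRNA-length trend (0.0746) and after removal of the gene-length trend (0.0906).

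Of the small TIM chaperones, which work as rings of paired types, 4 of 5 were tested. Of these 4, 2 were higher (50.0%, against 12.4% of all genes), with a median log2 fold change of 0.31. Timm8b and Timm13, whose products pair with each other, were the 2. Timm8b, on chromosome 9 at 50879853 to 50881272, had 50.8, 53.8 and 44.5 CPM with albiflorin and 35.7, 36.3 and 28.8 CPM with RANKL. The groups were well apart, with a log2 fold change of 0.57 ± 0.0969 (SE, edgeR adjusted p = 0.00097). Its span overlaps 81 bases of AU019823 on the opposite strand. Timm13 had 78.9, 88.9 and 68.7 CPM with albiflorin and 70.6, 52.5 and 61.1 CPM with RANKL, with 0.36 ± 0.101 (SE, edgeR adjusted p = 0.0168). Its groups overlapped, as albiflorin replicate 3 lay under RANKL replicate 1. The Timm13 call ended without RANKL replicate 2 (adjusted p = 0.0969), albiflorin replicate 1 (0.0556) or albiflorin replicate 2 (0.0753), and with limma on FPKM (0.0881 with a pseudocount of 1).

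Timm9 and Timm10, which form the other ring, did not pass. Timm9 had 39.5, 45.6 and 34.6 CPM with albiflorin and 27.97, 38.8 and 34.2 CPM with RANKL, with a log2 fold change of 0.24 ± 0.115 (SE, adjusted p = 0.145). Timm10 had 23.5, 21.9 and 20.7 CPM with albiflorin and 19.3, 15.4 and 20.98 CPM with RANKL, with 0.25 ± 0.115 (SE, adjusted p = 0.126). In both genes the groups overlapped, and Timm9 passed without albiflorin replicate 3 (adjusted p = 0.048). The 4 small TIM genes have short transcripts, of 518 to 1225 bases. Of all protein-coding genes, 59.3% under 1000 bases and 29.7% from 1000 to 2000 bases were higher as fitted. After removal of the mRNA-length trend 0 of the 4 were higher (against 5.04% of all genes). Timm8b was then at 0.11 (adjusted p = 0.514), Timm13 at 0.11 (0.405), Timm9 at -0.08 and Timm10 at -0.14. Timm8a2 had 0 to 2 counts in any library and was not tested.

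The subunits of the matrix processing peptidase lay on either side of the threshold. Pmpcb, the catalytic subunit, on chromosome 5 at 20713539 to 20738035, had 98.9, 107 and 98.2 CPM with albiflorin and 80.5, 78.1 and 77.8 CPM with RANKL. The groups were widely separated relative to their spread, with a log2 fold change of 0.36 ± 0.0624 (SE, edgeR adjusted p = 0.000975). Pmpca, the subunit that binds the presequence, had 142, 142 and 140.1 CPM with albiflorin and 139, 133 and 136 CPM with RANKL, with 0.05 ± 0.0571 (SE, adjusted p = 0.533). Its libraries did not overlap either, though the gap was small. Pmpcb was still higher, by 0.19 on the log2 scale, after removal of the mRNA-length trend (adjusted p = 0.0313). In the SAM complex, the pore protein Samm50 had 133, 130.1 and 132 CPM with albiflorin and 135, 123 and 128 CPM with RANKL, with overlapping groups and a log2 fold change of 0.04 ± 0.0599 (SE, adjusted p = 0.722).

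Among the CHCHD genes, 4 of 8 were higher (50.0%, against 12.4% of all genes), with a median log2 fold change of 0.34. Chchd10 was the 1 of the 4 still called after removal of the mRNA-length trend, where the median was 0.08. After removal of the gene-length trend 3 of 8 were higher (37.5%, against 7.18% of all genes), with a median of 0.23. These were Chchd3, Chchd4 and Chchd7. The name pattern takes the CHCHD genes for their shared fold, and most are cargo of the intermembrane space route or do other work. Chchd4, the receptor of that route, had 55.8, 58.2 and 56.2 CPM with albiflorin and 51.4, 47.6 and 51.5 CPM with RANKL. Every albiflorin library lay above every RANKL library, with a log2 fold change of 0.18 ± 0.0687 (SE, adjusted p = 0.0714), and the gene passed with the mRNA-length (0.21, adjusted p = 0.0408) or gene-length (0.23, adjusted p = 0.0268) trend removed.

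Chchd1, a protein of the small subunit of the mitochondrial ribosome, had 50.1, 49.4 and 40.6 CPM with albiflorin and 33.7, 30.8 and 29.7 CPM with RANKL. Its groups were well apart, with a log2 fold change of 0.57 ± 0.0919 (SE, edgeR adjusted p = 0.000666), but it did not pass with the mRNA-length (0.15, adjusted p = 0.239) or gene-length (0.17, adjusted p = 0.179) trend removed. Chchd3, a subunit of the MICOS complex that shapes the cristae, had 140.4, 138 and 119 CPM with albiflorin and 110.0, 105 and 108 CPM with RANKL, with 0.30 ± 0.0684 (SE, edgeR adjusted p = 0.00511). Its groups did not overlap. It did not pass after removal of the mRNA-length trend (0.11, adjusted p = 0.199), but did after removal of the gene-length trend (0.23, adjusted p = 0.0172).

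Chchd10, an intermembrane space protein linked to motor neuron disease in people, had 9.36, 10.0 and 7.73 CPM with albiflorin and 6.09, 4.08 and 5.87 CPM with RANKL. It had few counts but separate groups, and the greatest log2 fold change of the 34 genes, 0.76 ± 0.177 (SE, edgeR adjusted p = 0.00602). After removal of the gene-length trend it did not pass (adjusted p = 0.0782), and after removal of the mRNA-length trend it did (0.57, adjusted p = 0.0387). Chchd7 had a log2 fold change of 0.37 (edgeR adjusted p = 0.0309). Its call ended without RANKL replicate 2 (0.105), RANKL replicate 3 (0.0815) or albiflorin replicate 2 (0.166). It also ended with limma on FPKM (0.076) and after removal of the mRNA-length trend (0.897). The call held after removal of the gene-length trend (0.38, adjusted p = 0.0368).

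Chchd2, the paralogue of Chchd10, varied widely among the albiflorin libraries, which was noticed after its values were seen. It had 1153, 503 and 1312 counts with albiflorin and 722, 776 and 865 counts with RANKL. Albiflorin replicate 2 was the lowest of the 6 and the other two albiflorin libraries the highest. The log2 fold change was 0.36 ± 0.199 (SE, adjusted p = 0.209) with all libraries and 0.65 (adjusted p = 0.000162) without albiflorin replicate 2. It was 0.09 (adjusted p = 0.771) without albiflorin replicate 3. The span of Chchd2 overlaps 10099 bases of Phkg1 on the same strand, which had 13 to 29 counts per library. Counts listed for Chchd2 may therefore not reflect its transcript alone. The MICOS subunit Chchd6 had 0.32 and Chchd5 0.22, and both passed without albiflorin replicate 3 (adjusted p = 0.0234 for Chchd6 and 0.0467 for Chchd5).

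Tomm34, a cytosolic partner of Hsp70 and Hsp90, and Timmdc1, an assembly factor of respiratory complex I, carry import names without being part of a translocase. Their log2 fold changes were 0.02 and 0.14. Without these and the CHCHD genes, 9 of 24 tested import genes were higher (37.5%, against 12.4% of all genes), with a median of 0.22. After removal of the mRNA-length trend 5 of 24 were higher (20.8%, against 5.04%), with a median of 0.11, and after removal of the gene-length trend 5 of 24 (20.8%, against 7.18%), with a median of 0.07.

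The promoters of Pmpcb, Grpel1 and Tomm20 are shown because these genes were called in all 3 fits and have an entry in the RefSeq promoter table (GRCm38.p6). Tomm7 is the other gene called in all 3. Each stretch runs from 250 bases before to 50 bases after the annotated start, 5′ to 3′ on the gene's strand. Capitals mark TGCGCA, the core of the motif of NRF1, or CCGGAAGT, a motif of ETS factors such as GABPA. Both factors are known as activators of nuclear genes for mitochondrial proteins. Coordinates are chr5:21736910-21737209 on the plus strand for Pmpcb, chr5:36464935-36465234 on the plus strand for Grpel1 and chr8:126945872-126946171 on the minus strand for Tomm20.
Pmpcb: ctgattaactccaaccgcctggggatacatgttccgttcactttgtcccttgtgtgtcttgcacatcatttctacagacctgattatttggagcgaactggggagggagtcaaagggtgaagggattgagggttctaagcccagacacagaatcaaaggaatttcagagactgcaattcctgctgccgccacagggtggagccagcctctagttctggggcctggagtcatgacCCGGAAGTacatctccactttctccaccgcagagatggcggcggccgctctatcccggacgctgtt
Grpel1: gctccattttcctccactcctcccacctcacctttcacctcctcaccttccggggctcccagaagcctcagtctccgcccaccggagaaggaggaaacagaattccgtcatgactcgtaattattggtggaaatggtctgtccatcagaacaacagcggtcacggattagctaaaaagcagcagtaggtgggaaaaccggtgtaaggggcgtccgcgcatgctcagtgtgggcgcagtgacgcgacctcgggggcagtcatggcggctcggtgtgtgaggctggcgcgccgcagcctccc
Tomm20: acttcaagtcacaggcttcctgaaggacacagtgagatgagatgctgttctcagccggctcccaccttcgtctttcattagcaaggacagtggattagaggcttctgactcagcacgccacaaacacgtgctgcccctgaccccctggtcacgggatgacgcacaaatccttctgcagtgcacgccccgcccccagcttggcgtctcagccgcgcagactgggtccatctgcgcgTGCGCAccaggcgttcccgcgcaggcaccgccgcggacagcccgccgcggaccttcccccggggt
In Pmpcb the ETS motif begins at -16 from the start, and in Tomm20 the NRF1 core begins at -15, while the Grpel1 window holds neither.

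Over all import genes, 30 matched the promoter table. TGCGCA, searched on both strands, lay in 6 of the 30 (20%), against 8.79% of 27018 genes in the table. CCGGAAGT lay in 7 (23.3%), against 4.31%, and AAGATGGC, a motif of YY1, in 1 (3.33%), against 3.19%. The import promoters were also richer in G and C, with a median of 59.0% and 19.5 CpG pairs, against 52.7% and 7.0 over all genes. Of the 11 higher genes with an entry, 4 held TGCGCA and 1 held CCGGAAGT. These matches describe letters and not binding.

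Within-library ratios of partner genes set one subunit against another and do not depend on library size, but they still carry the trend with mRNA length. The 6 pairs were chosen with the values known, and an exact two-sided permutation test of 3 against 3 libraries cannot go below p = 0.1. The ratio of Pmpcb to Pmpca counts was 0.695, 0.755 and 0.701 with albiflorin and 0.580, 0.586 and 0.571 with RANKL, with means of 0.717 ± 0.033 and 0.579 ± 0.00752 (SD, n = 3 each). The groups did not overlap, the difference of log2 ratios was 0.31, and the exact permutation p was 0.1 (0.3 adjusted over the 6 pairs). The log2 fold changes of the single genes lay closer together after removal of the mRNA-length trend, at 0.19 for Pmpcb and 0.06 for Pmpca. Tomm40l over Tomm40 averaged 0.153 ± 0.00191 with albiflorin and 0.165 ± 0.00943 with RANKL, also without overlap (exact p = 0.1, adjusted 0.3). Here the order turned after removal of the mRNA-length trend, with log2 fold changes of 0.14 for Tomm40l and -0.03 for Tomm40. Grpel1 over Grpel2 averaged 2.37 ± 0.27 with albiflorin and 1.97 ± 0.183 with RANKL, and these overlapped (exact p = 0.2, adjusted 0.4). The other pairs, Timm17b over Timm17a, Chchd6 over Chchd3 and Chchd10 over Chchd2, overlapped too, with exact p of 0.4, 0.9 and 0.4. No pair passed.

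**Figure D4:**
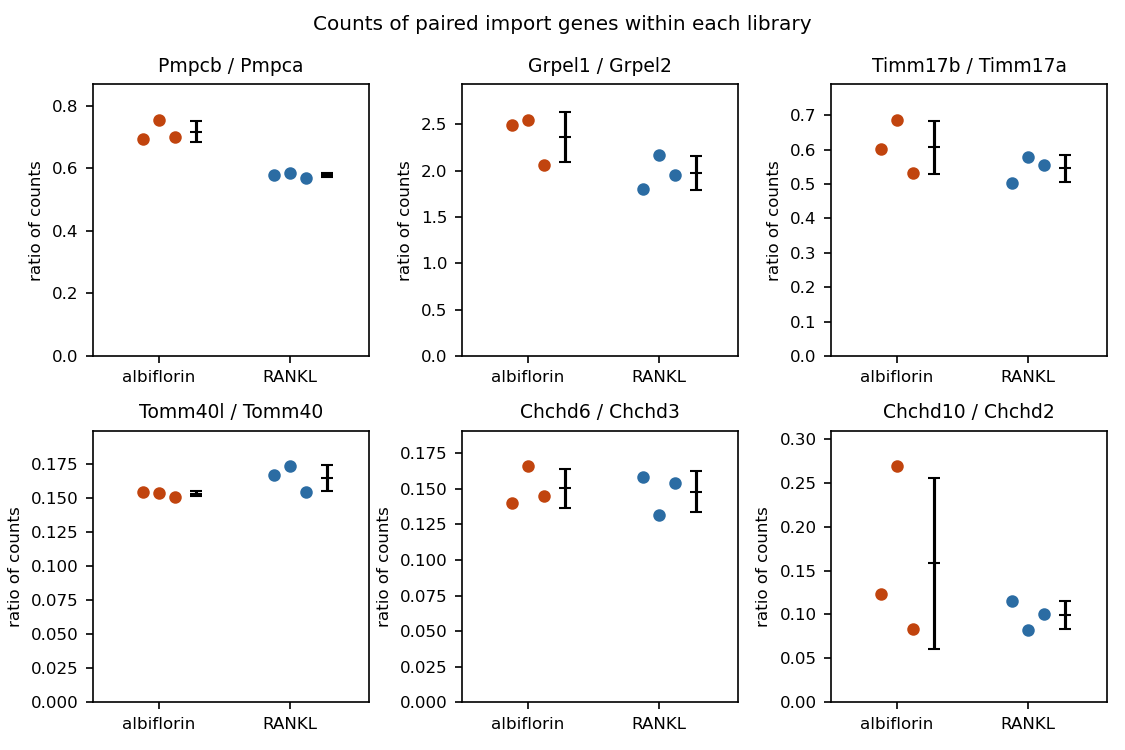
Ratio of the counts of 2 partner genes in each library for 6 pairs, albiflorin left of RANKL, with the mean and SD as black bars. Pmpcb over Pmpca lies between 0.695 and 0.755 with albiflorin and between 0.571 and 0.586 with RANKL, and only this pair and Tomm40l over Tomm40 show separate groups.

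Longer mRNAs had lower fold changes across the transcriptome as well as among the import genes. Between log2 fold change and mRNA length, Spearman's rho was -0.636 over the 34 import genes and -0.621 over 10479 tested protein-coding genes, a description across genes that share the same 6 libraries. Of all protein-coding genes with an mRNA under 1000 bases, 59.3% were higher (355 of 599), beside 4 of 7 import genes. The share was 29.7% of all genes and 5 of 13 import genes from 1000 to 2000 bases. From 2000 to 4000 bases it was 7.27% of all genes and 3 of 8 import genes, and from 4000 bases 1.57% and 1 of 6. The import genes were thus close to the background of their length in the shortest class, and their counts in the longer classes are small.

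The trend had a different strength in each library. The correlation over genes between mRNA length and a library's deviation of log2 CPM from the mean of all 6 was -0.51, -0.586 and -0.277 in albiflorin libraries 1 to 3 and 0.425, 0.597 and 0.382 in RANKL libraries 1 to 3. The median deviation of the 34 import genes was 0.09, 0.14 and 0.04 with albiflorin and -0.05, -0.17 and -0.08 with RANKL. Albiflorin replicate 2 and RANKL replicate 2 were farthest from 0 in both measures. Of the 13 genes called higher, albiflorin replicate 3 was the lowest albiflorin library in 11, and RANKL replicate 2 the lowest RANKL library in 9. RNA integrity was not analysed here, and the part of the length trend in each library's values was not tested beyond its removal above.

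**Figure D5:**
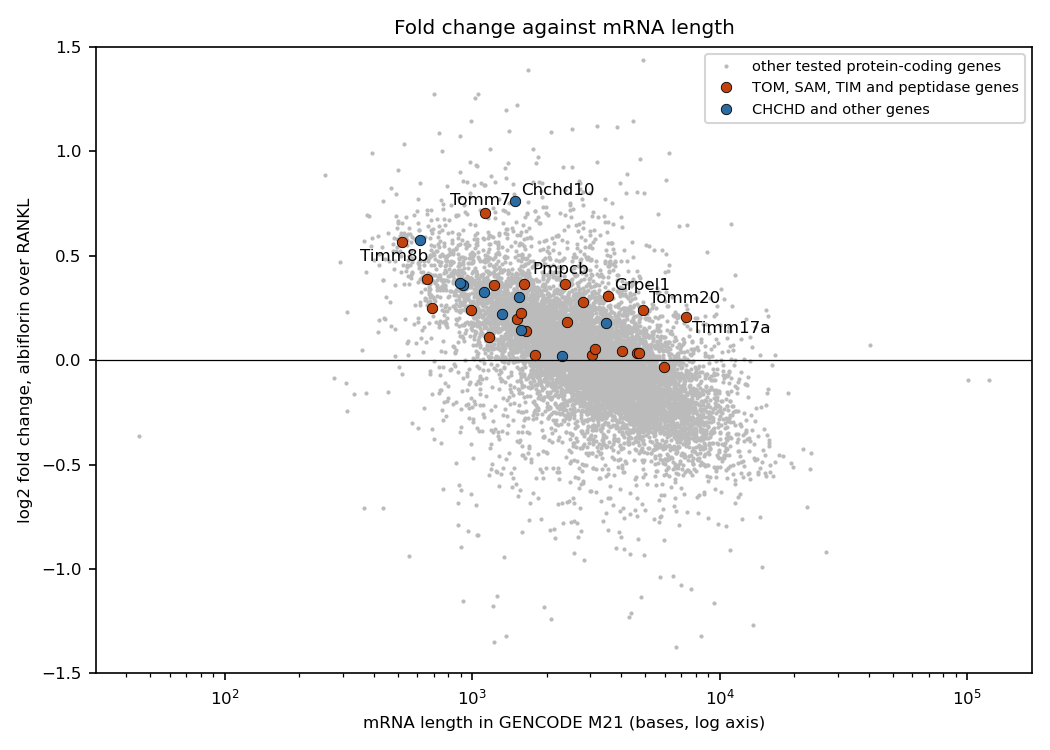
Log2 fold change, albiflorin over RANKL, against mRNA length (log axis) for tested protein-coding genes in grey and import genes in colour. Short mRNAs lie mostly above 0 and long mRNAs mostly below, while Grpel1, Tomm20 and Timm17a lie above most genes of their length.

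Further import and assembly genes that the name pattern does not take were counted for comparison. Of 32 listed, 29 were matched to a row and all 29 were tested, with 9 higher (31.0%, against 12.4% of all genes), 1 lower (against 11.4%) and a median log2 fold change of 0.12. Micos10 and Micos13 of the MICOS complex had log2 fold changes of 0.49 and 0.36 (edgeR adjusted p = 0.000526 and 0.0099). The matrix co-chaperonin Hspe1 had 0.45 (0.00178), and Mtx2, a partner of Samm50 in the SAM complex, had 0.36 (0.0026). Dnajc15, a second J-protein of the motor, had 0.43 (0.00413), Romo1, a small inner membrane protein, 0.42 (0.00948) and Immp1l, an inner membrane peptidase, 0.38 (0.0188). Pitrm1, a protease that degrades cleaved presequences, was the gene called lower, at -0.19 (0.0307). After removal of the mRNA-length trend 4 were higher (13.8%, against 5.04% of all genes) and 0 lower (against 5.49%). These were Micos10, Mtx2 and Dnajc15 from among the 9, and Dnaja1, a cytosolic J-protein named after its values were seen. The calls of Hspe1 (0.07, adjusted p = 0.471), Immp1l (0.05, 0.784), Romo1 (-0.03, 0.884), Micos13 (-0.02, 0.902) and Pitrm1 (-0.13, 0.127) ended. The Dnajc15 call ended after removal of the gene-length trend (0.04, adjusted p = 0.813). The annotated mRNA of Dnajc15 has 6193 bases and its listed gene length is 648 bases, so the removals treat it very differently. Without RANKL replicate 2 or without albiflorin replicate 2, 5 were higher and 0 lower.

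Some translocase subunits appear in the table only as rows without a symbol, identified by the deposited description. Tomm5, a small TOM subunit, had 69.8, 81.1 and 65.3 CPM with albiflorin and 63.2, 51.1 and 51.8 CPM with RANKL. The groups did not overlap, and the log2 fold change was 0.38 ± 0.0921 (SE, edgeR adjusted p = 0.00749). This row has no mRNA length, and after removal of the gene-length trend the value was 0.04 (adjusted p = 0.77). Timm29, a subunit of the carrier translocase, had 91.4, 92.1 and 94.5 CPM with albiflorin and 98.6, 102 and 102 CPM with RANKL. Here all albiflorin libraries lay below, with log2 fold change -0.12 ± 0.0589 (SE, adjusted p = 0.148), and the gene passed as lower after removal of the gene-length trend (-0.17, adjusted p = 0.0416).

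Pam16, a motor subunit, is described for 2 rows, which may share reads. The row on chromosome 16 had 56, 115 and 39 counts with albiflorin and 22, 37 and 26 counts with RANKL, with a log2 fold change of 1.37 ± 0.359 (SE, edgeR adjusted p = 0.012). Albiflorin replicate 2 held by far the most, and without it the call ended (0.74, adjusted p = 0.105). It also ended after removal of the gene-length trend (0.99, adjusted p = 0.054). The row on chromosome 10 had 157, 78 and 134 counts with albiflorin and 97, 89 and 78 counts with RANKL. Here albiflorin replicate 2 was the lowest albiflorin library, where it was the highest on chromosome 16. The log2 fold change of the chromosome 10 row was 0.51 (adjusted p = 0.0757), and it passed without albiflorin replicate 2 (0.72, adjusted p = 0.0088). The 2 rows were not tested together. Timm10b had 0.37 (adjusted p = 0.157), and both rows of Timm8a1 had 0 to 3 counts in every library.

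The genes of the mitochondrial ribosome, another large set of nuclear genes for mitochondrial proteins, give a yardstick. Of 74 tested Mrpl and Mrps genes, 46 were higher (62.2%, against 12.4% of all genes) and 0 lower (against 11.4%), with a median log2 fold change of 0.30, against 13 of 34 (38.2%) and 0.23 for the import genes. After removal of the mRNA-length trend, 20 of 74 (27.0%) and 7 of 34 (20.6%) were higher, against 5.04% of all genes, with medians of 0.07 and 0.11. Mrps34 alone was then lower (-0.41, edgeR adjusted p = 0.0184). When the trend on listed gene length was taken out instead, 25 of 74 (33.8%) and 8 of 34 (23.5%) were higher. The share of all genes was 7.18%, and the medians were 0.15 for the ribosomal and 0.10 for the import genes. Which set had the higher median therefore depended on the length used, while the ribosomal share was larger with either length. The difference between these sets was not tested.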

How the data were processed

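Samples were grouped by their titles and table columns matched to them by group letter and replicate number. The authors deposited whole-number counts per gene, a table of FPKM values, and a listed gene length (in bases, with no score). Tools in the submitters' processing notes are HISAT2 2.2.1, fastp, DESeq2 1.42.0, CASAVA 1.8 and featureCounts 2.0.6-p3, with no role given. No source used here names the genome build. Gene coordinates are those of the deposited table, and promoter coordinates are GRCm38.p6.

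Deposited counts were tested with edgeR 4.0.16 (R 4.3.3): filterByExpr, TMM scaling, a quasi-likelihood F-test with group as the only term, and Benjamini-Hochberg adjustment over all 13158 tested genes at 0.05. Each SE was taken as the size of the log2 fold change over the root of its F. CPM use TMM-scaled library sizes. Length trends were fitted by lowess (span 0.3) over genes with mean log2 CPM above 3 and removed as an offset. mRNA lengths are those of the principal GENCODE M21 transcript, matched for 85.9% of tested genes and all 34 tested import genes. Unmatched genes took their listed gene length in that fit. This second length was added after seeing the data.

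Alternatives used RLE scaling, DESeq2 1.42.0, limma-voom (limma 3.58.1), other filters on low counts, limma on log2(FPKM + 1) or log2(FPKM + 0.1), where genes needed 1 FPKM in 3 libraries, a replicate block, and each library left out. A fold change on the log2(FPKM + pseudocount) scale understates the change of low genes. The gene set and the lists were chosen with earlier results of these data known, although the rule that finds the rows reads names alone. Full values are given for 17 core genes whatever their result and the 10 called genes with the smallest p, and of the genes outside the name pattern the 8 called with the smallest p are named. The depth of 13673284 to 15489482 counts per library limits the precision of genes such as Chchd10.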

Additional observations from a re-analysis of the deposited data

How the results depend on the processing

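Among the 13 import genes called higher, 161 of 221 values under the 17 alternatives kept direction and side of the threshold, 59 kept direction only and 1 changed sign. Of 357 values for the 21 genes not called, 322 were unchanged in this sense, 11 passed and 24 changed sign. The cause was not tested.

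The number of import genes higher was 8 with the gene-length and 7 with the mRNA-length trend removed, 0 with limma on unfiltered log2(FPKM + 1), and 7 (without RANKL replicate 2) to 15 leaving out 1 library. Their median log2 fold change was 0.10 and 0.11 with the gene-length and mRNA-length trends removed and 0.20 to 0.28 leaving out 1 library, 0.28 being without RANKL replicate 1. Over all genes, 1631 were higher, against 945 and 663 with the gene-length and mRNA-length trends removed, 20 on unfiltered FPKM, and 984 to 1753 leaving out 1 library. Lower were 1496, against 881 on log2(FPKM + 1), 856 on log2(FPKM + 0.1), 9 on unfiltered FPKM, 722 with the mRNA-length trend removed, and 914 to 1644 leaving out 1 library. Of the genes outside the name pattern, 5 were higher on log2(FPKM + 0.1), 0 on unfiltered FPKM, 4 with the mRNA-length trend removed and 5 to 10 leaving out 1 library. Lower were 2 with RLE, DESeq2, limma-voom, no filter, the stricter filter and the gene-length trend removed, 0 on unfiltered FPKM, 0 with the mRNA-length trend removed, and 0 to 2 leaving out 1 library.

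Signs changed with the mRNA-length trend removed for Chchd5 (-0.0093), Dnajc19 (-0.0228), Timm10 (-0.14), Timm23 (-0.15), Timm44 (-0.12), Timm9 (-0.0808), Timmdc1 (-0.0382), Tomm34 (-0.0542), Tomm40 (-0.0312), Tomm70a (0.14), Micos13 (-0.0184) and Romo1 (-0.0265). They changed with the gene-length trend removed for Samm50 (-0.16), Timm10 (-0.0969), Timm17a (-0.0827), Timm21 (-0.0733), Timm23 (-0.21), Timm9 (-0.0809), Timmdc1 (-0.0411), Tomm22 (-0.0856), Tomm34 (-0.0408) and Micos13 (-0.0073). Leaving out 1 library, the lowest and highest log2 fold changes were -0.0395 to 0.0904 for Grpel2, -0.028 to 0.0536 for Timm44, -0.0148 to 0.0439 for Tomm34, -0.0179 to 0.0521 for Tomm40l and -0.0752 to 0.0302 for Tomm70a.

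Same-numbered libraries did not deviate together (correlations of 0.0219, -0.0433 and -0.0664), so the numbers were not taken to pair samples. With a replicate block 10 import genes were higher, without Chchd7, Timm22 and Tomm20, and 1358 genes were higher and 1214 lower overall. Depth limits Tomm6, Tomm20l and Timm8a2, which had at most 4 counts per library.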
